A study of Mus musculus with 4 samples.

Results

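The tumour necrosis factor (TNF) receptor superfamily, its ligands, the TRAF adaptors and genes with a Tnfaip symbol were followed in RNA-seq of lung T helper 2 (Th2) cells. All rows of the deposited table whose gene symbol starts with Tnfrsf, Tnfsf, Tnfaip, or Traf and a digit were taken, which gave 42 members of 11883 listed genes. They comprise 17 receptors, 9 ligands, 10 TRAF adaptors (7 numbered Traf genes and 3 Traf3ip genes, whose products bind TRAF3) and 6 Tnfaip genes. The Tnfaip genes are grouped by name only, since their products are not related to TNF or its receptors in structure. Cells came from C57BL/6 mice given papain, an allergen protease, in a chronic schedule, and were sorted from digested lung as live CD4+ cells positive for T1/ST2, the interleukin-33 receptor. The Klrg1Cre Gata3(fl/fl) group (2 samples, called Klrg1Cre) carried a Cre recombinase named for Klrg1 together with floxed Gata3, and the Gata3(fl/fl) group (2 samples, called control) carried floxed Gata3 without Cre. Floxed Gata3 and chronic papain were therefore common to both groups, and neither group used here carried Cre without floxed Gata3. The table heads the groups ILC2 deficient and WT, ILC2 being group 2 innate lymphoid cells. The genotype with Cre was taken as ILC2 deficient and the one without as WT, a link the labels do not state.

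Ligands of this superfamily are mostly trimeric membrane proteins, and many engage a receptor on a neighbouring cell. Receptors without a death domain, such as OX40, 4-1BB, GITR and CD30, recruit TRAF proteins to their tails and activate NF-kappaB, which supports T cell survival and cytokine production after antigen contact. Receptors with a death domain can also recruit caspases. Regulatory T cells, which express Foxp3 and dampen immunity, carry OX40, GITR, TNFR2 and 4-1BB on their surface, as do activated effector cells.

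The values are deposited group means in CPM, that is, counts scaled to a common library size, with the authors' ratio and p, and it is not stated whether the 2 samples of a group are separate mice, so that p-values may reflect technical spread alone. Library totals, inferred from the step size of the deposited values, were 26019065 and 14564426 reads in Klrg1Cre and 33379572 and 31961572 reads in control. Whole reads per library could be recovered for 21 of 42 members, and the other 21 have means only. Within a group the library with more reads is the larger one, as replicate numbers are unknown. Rn45s, the ribosomal RNA precursor, took 67.1% of Klrg1Cre reads and 51.4% of control reads, while the other listed genes together took 18.2% and 17.8%. Reads outside the listed genes took the remaining 14.7% in Klrg1Cre and 30.8% in control. T cell transcripts were present in both groups, with Cd3e at 76.6 CPM in Klrg1Cre against 73.04 CPM in control, and Cd4 at 167.6 and 150.1 CPM. Macrophage and monocyte transcripts were present too, with 19 listed markers summing to 1705 CPM in Klrg1Cre against 2476 CPM in control. Chil3 alone, at 1124 and 1932 CPM, had a wider gap than that of the whole sum. Of the 19 markers, 8 had higher and 11 lower means, with a median log2 ratio of -0.08. Klrg1 was at 4.19 CPM in Klrg1Cre against 48.4 CPM in control (the authors' deposited table, adjusted p = 0.0701), and Gata3 at 293.9 and 221.4 CPM (the authors' deposited table, adjusted p = 0.551). A gene-level mean of Gata3 does not show whether the floxed segment was cut. In these bulk samples, fewer cells of a type and less RNA per cell cannot be told apart.

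None of the 42 members passed the authors' adjusted p of 0.05 over all genes, a threshold that 0.0589% of all listed genes passed. The smallest adjusted p among them was 0.268, for Tnfsf8. At an unadjusted p below 0.05 there were 9 members, against 7.09% of all genes: 6 receptors with lower means in Klrg1Cre (3.37% of all genes were lower at that p), and 2 ligands and 1 TRAF gene with higher means (3.72% of all genes were higher at that p). Over the classes, deposited means were lower in Klrg1Cre for 13 of 17 receptors, 3 of 9 ligands, 4 of 10 TRAF adaptors and 2 of 6 Tnfaip genes, where 49.4% of all genes had lower means. The median log2 ratio was -0.28 for receptors, 0.52 for ligands, 0.05 for TRAF adaptors and 0.06 for Tnfaip genes, beside 0.01 for all genes. The ligand median turned to -0.20 over the 4 ligands averaging 5 CPM or more, and was -0.17 on the log2(CPM + 1) scale over the 5 ligands with values per library. Summed over the class, receptor transcripts amounted to 314.6 CPM in Klrg1Cre against 458.5 CPM in control, a ratio of 0.686. Ligand transcripts summed to 74.5 CPM in Klrg1Cre against 62.9 CPM in control. Tnfsf8 alone, at 35.3 and 21.3 CPM, had a wider gap than that of the ligand sum, so the direction of the sum rests on this gene. These directions are relative to all reads. Scaled to all reads other than Rn45s, every log2 ratio was higher by 0.57 and so was the median of all genes. On that scale Tnfrsf1b (0.18) and Tnfrsf18 (0.024) were above 0, but below the median of all genes at 0.57. Tnfrsf9, Tnfrsf8, Tnfrsf4 and Tnfrsf22 were still lower in Klrg1Cre.

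**Figure D1:**
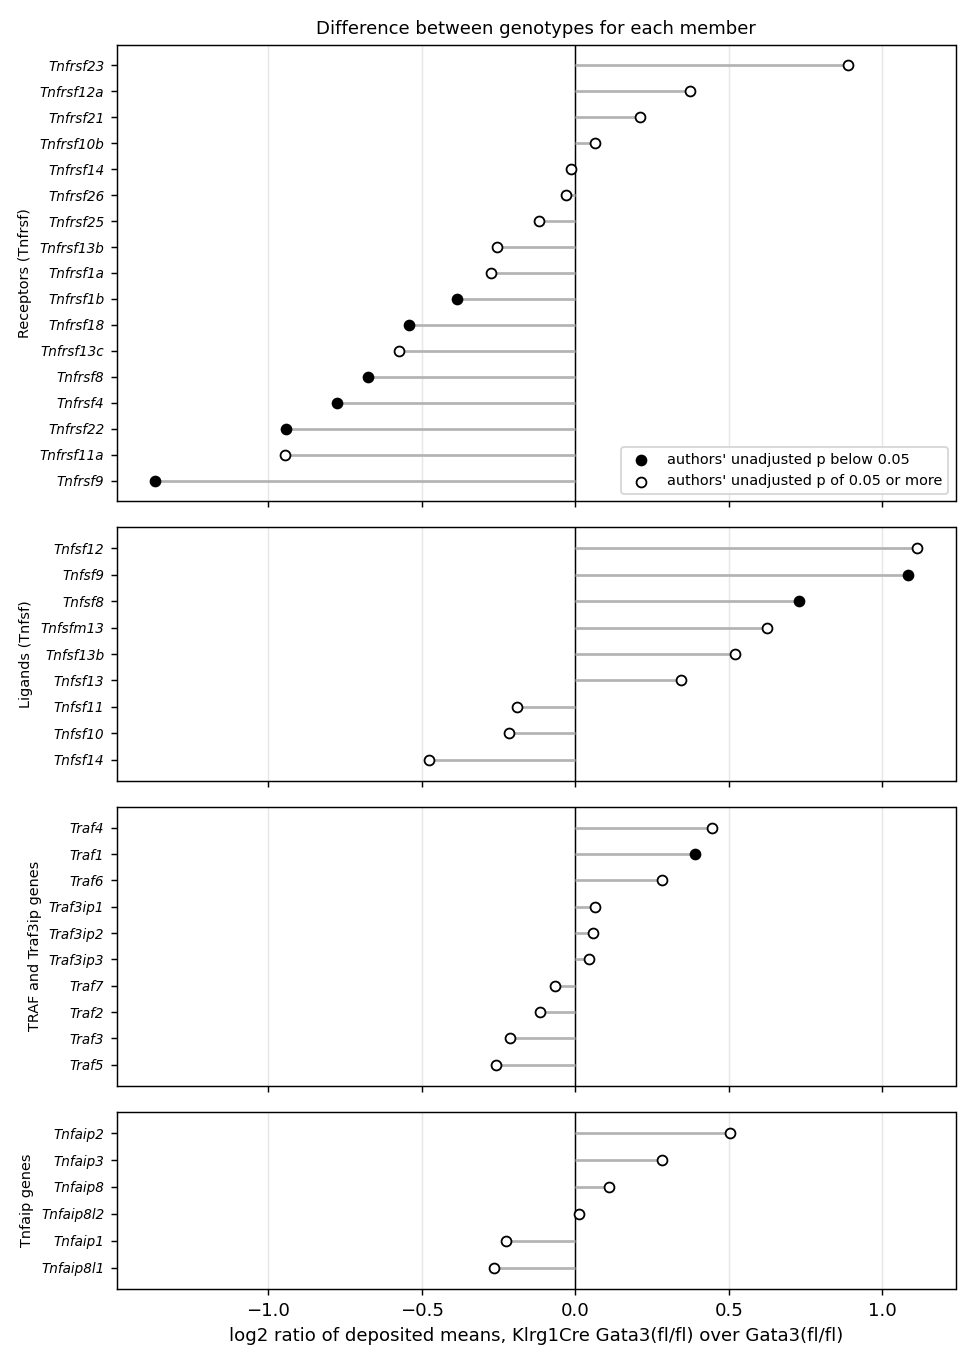
Each row is 1 member and the horizontal axis is the log2 ratio of the deposited means, Klrg1Cre over control, with filled points for members at an authors' unadjusted p below 0.05. All 6 filled receptors lie left of 0, with Tnfrsf9 the farthest at -1.37, and the filled ligands Tnfsf8 and Tnfsf9 and the filled adaptor Traf1 lie right of it.

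Among the T cell costimulatory receptors, Tnfrsf9, encoding 4-1BB (CD137), had the lowest ratio. Its mean stood at 11.4 CPM in Klrg1Cre, where control had 29.3 CPM, and was 2.58-fold lower (the authors' deposited table, p = 0.00236, adjusted p = 0.321), with no values per library. Tnfrsf4, encoding OX40, held 49.2 CPM in the larger and 92.0 CPM in the smaller Klrg1Cre library, against 88.6 CPM in the larger and 153.5 CPM in the smaller control library. The groups therefore overlapped, with the smaller Klrg1Cre library slightly above the larger control library. Over the libraries Tnfrsf4 averaged 70.6 ± 30.2 CPM in Klrg1Cre against 121.03 ± 45.9 CPM in control (SD, n = 2 each). The mean was thus 1.71-fold lower (the authors' deposited table, p = 0.0279, adjusted p = 0.637). Tnfrsf18, encoding GITR, averaged 106.7 CPM in Klrg1Cre, where control had 155.3 CPM, and was 1.46-fold lower (the authors' deposited table, p = 0.0438, adjusted p = 0.698), again with no values per library.

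Tnfrsf8, encoding CD30, a receptor of activated lymphocytes, held 5.57 and 7.96 CPM in the larger and smaller Klrg1Cre libraries, against 9.44 and 12.2 CPM in the larger and smaller control libraries. Both Klrg1Cre libraries lay below both control libraries, and the mean was 1.60-fold lower (the authors' deposited table, p = 0.0210, adjusted p = 0.610). Tnfrsf1b, encoding TNFR2, the TNF receptor without a death domain, held 44.7 and 61.1 CPM in Klrg1Cre against 70.9 and 67.3 CPM in control. Here too the groups were apart, with a mean 1.31-fold lower (the authors' deposited table, p = 0.0354, adjusted p = 0.666). Tnfrsf25, encoding DR3, the receptor for TL1A that costimulates type 2 lymphocytes and carries a death domain, was close between groups at 19.3 CPM in Klrg1Cre against 20.9 CPM in control (the authors' deposited table, p = 0.543). Tnfrsf14, encoding HVEM, held 3.80 and 3.43 CPM in Klrg1Cre against 3.77 and 3.54 CPM in control, with overlapping groups.

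Scaled to exon length (CPM per kb), Tnfrsf18 and Tnfrsf4 were the most abundant receptor transcripts in both groups. Tnfrsf18 stood at 84.7 CPM per kb in Klrg1Cre and 123.3 CPM per kb in control, and Tnfrsf4 at 68.6 and 117.5 CPM per kb. Tnfrsf1b followed at 13.9 CPM per kb in Klrg1Cre and 18.1 CPM per kb in control. On this scale Tnfrsf9 stood in position 6 of the receptors in Klrg1Cre, at 4.57 CPM per kb, below Tnfrsf25 and Tnfrsf13b, and in position 4 in control, at 11.8 CPM per kb. The difference between neighbouring positions was not tested, since the means carry no spread for most of these genes.

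**Figure D2:**
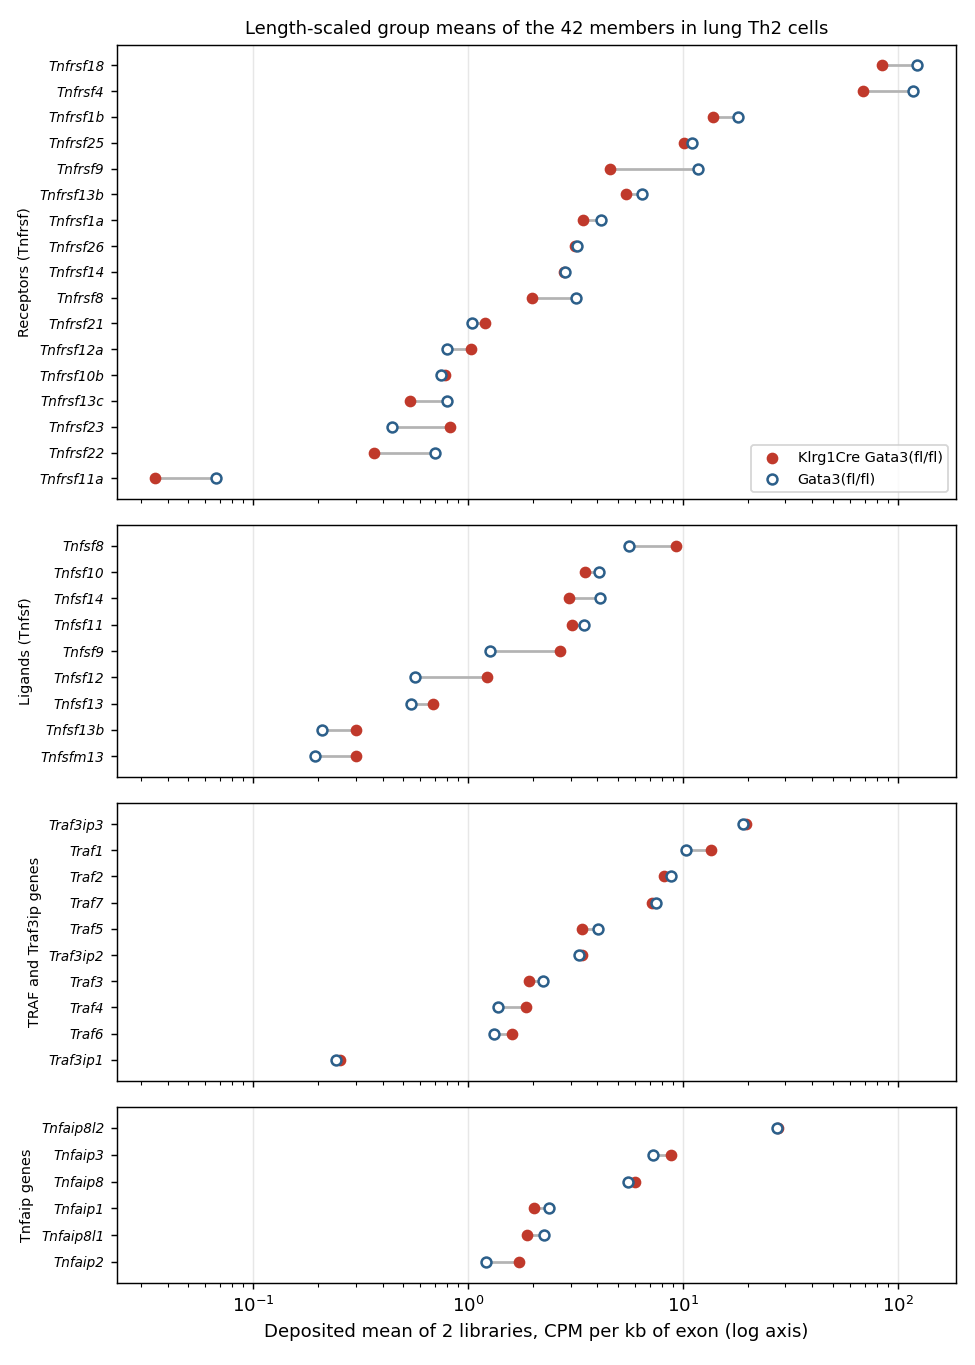
Rows are the 42 members by class and the horizontal log axis is the deposited group mean divided by exon length (CPM per kb), with filled red points for Klrg1Cre and open blue points for control. Tnfrsf18 and Tnfrsf4 stand above all other receptors in both genotypes, and Tnfrsf9 shows the widest gap among receptors over 1 CPM per kb.

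Death receptors and the decoys related to them formed a further set. Tnfrsf1a, encoding the death-domain receptor TNFR1, held 8.22 and 6.52 CPM in Klrg1Cre against 10.2 and 7.70 CPM in control, with overlapping groups. Tnfrsf10b, encoding the TRAIL death receptor, held 2.42 and 2.54 CPM in Klrg1Cre, from 63 and 37 reads, against 2.37 and 2.38 CPM in control, from 79 and 76 reads. The groups did not overlap, but the margin was very narrow for so few reads (the authors' deposited table, p = 0.852). Tnfrsf21, encoding death receptor 6, held 4.54 and 4.19 CPM in Klrg1Cre, above 3.68 and 3.85 CPM in control (the authors' deposited table, p = 0.451). The mouse decoy receptors for TRAIL, Tnfrsf22 and Tnfrsf23, had ratios in opposite directions, with Tnfrsf22 at 1.54 CPM in Klrg1Cre against 2.96 CPM in control (the authors' deposited table, p = 0.0458) and Tnfrsf23 at 1.22 and 0.657 CPM (the authors' deposited table, p = 0.153). These paralogs lie side by side with Tnfrsf26 on chromosome 7, and reads could have been divided between similar copies, so each value is uncertain. Their sum was 2.75 CPM in Klrg1Cre against 3.61 CPM in control. Tnfrsf26 itself held 11.1 and 8.99 CPM in Klrg1Cre against 11.5 and 9.07 CPM in control.

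Receptors best known from B cells and other lineages completed the class. Tnfrsf13b, encoding TACI, averaged 13.8 CPM in Klrg1Cre against 16.5 CPM in control (the authors' deposited table, p = 0.197), and Tnfrsf13c, encoding the BAFF receptor, 1.10 and 1.64 CPM (the authors' deposited table, p = 0.221). Of 12 B cell and plasma cell markers, 6 were listed, and these summed to 4.93 CPM in Klrg1Cre against 7.70 CPM in control. Pax5 was not among the listed ones, and Cd79a stood at 0.321 and 0.510 CPM. The part of B cells in the TACI level was not tested. Tnfrsf12a, encoding the TWEAK receptor, stood at 1.10 CPM in Klrg1Cre against 0.848 CPM in control. Tnfrsf11a, encoding RANK, had only 2 and 4 reads in the larger and smaller Klrg1Cre libraries against 8 and 14 reads in the control libraries, so its ratio is not interpretable at this depth.

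The 7 receptor genes on chromosome 4 in the RefSeq annotation (Tnfrsf1b, Tnfrsf8, Tnfrsf9, Tnfrsf25, Tnfrsf14, Tnfrsf4 and Tnfrsf18) all had lower deposited means in Klrg1Cre relative to all reads (Tnfrsf1b, Tnfrsf18, Tnfrsf25 and Tnfrsf14 did not when Rn45s reads were left out of the totals), and 5 of them were among the 6 receptors at an unadjusted p below 0.05. Their log2 ratios had a median of -0.54, beside -0.14 for the 10 receptors on other chromosomes and 0.02 for all 718 listed genes of chromosome 4. Of these 718 genes, 343 had lower means and 38 were at an unadjusted p below 0.05 in either direction. The ligand gene Tnfsf8, also on chromosome 4, went the other way with a log2 ratio of 0.73. Tnfrsf4 and Tnfrsf18 are next to each other among the listed genes, as are Tnfrsf1b and Tnfrsf8. The nearest listed genes on either side that are not members numbered 10, of which 7 had lower and 3 higher means and 0 reached an unadjusted p of 0.05. Their median log2 ratio was -0.10. Examples were Sdf4 beside Tnfrsf4 at 103.5 CPM in Klrg1Cre against 118.2 CPM in control, and Park7 beside Tnfrsf9 at 34.5 and 32.0 CPM. Chromosome 4 was singled out, and these neighbours were chosen, after the values of the receptors had been seen. As chromosome 4 holds 5 of the 6 receptors at that p, its lower receptor median follows in part from this choice.

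The windows from 250 bases before to 50 bases after the annotated start are shown for 4 of the chromosome 4 receptors at an unadjusted p below 0.05, for the ligand Tnfsf8 and for Tnfaip3, a known NF-kappaB target, because receptors and ligands of this family are themselves induced through NF-kappaB. Sequences are RefSeq, build GRCm38.p6, 5′ to 3′ on the gene's strand, and capitals mark matches to an NF-kappaB-like motif, GGGA and CC with 4 bases of any kind between them, on either strand.
Tnfrsf9, chr4:150927749-150928048, plus strand: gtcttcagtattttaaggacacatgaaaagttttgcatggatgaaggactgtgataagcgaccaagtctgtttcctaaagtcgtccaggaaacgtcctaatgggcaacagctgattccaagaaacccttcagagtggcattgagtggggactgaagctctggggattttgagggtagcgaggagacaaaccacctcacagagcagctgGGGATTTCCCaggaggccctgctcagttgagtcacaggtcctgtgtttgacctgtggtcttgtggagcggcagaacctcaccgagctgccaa
Tnfrsf8, chr4:145315115-145315414, minus strand: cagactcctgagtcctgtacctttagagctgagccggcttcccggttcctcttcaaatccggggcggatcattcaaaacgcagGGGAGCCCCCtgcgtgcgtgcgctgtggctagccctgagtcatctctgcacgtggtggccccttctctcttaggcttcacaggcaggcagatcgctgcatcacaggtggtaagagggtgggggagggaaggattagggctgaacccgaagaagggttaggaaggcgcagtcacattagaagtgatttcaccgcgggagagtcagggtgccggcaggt
Tnfrsf4, chr4:156013445-156013744, plus strand: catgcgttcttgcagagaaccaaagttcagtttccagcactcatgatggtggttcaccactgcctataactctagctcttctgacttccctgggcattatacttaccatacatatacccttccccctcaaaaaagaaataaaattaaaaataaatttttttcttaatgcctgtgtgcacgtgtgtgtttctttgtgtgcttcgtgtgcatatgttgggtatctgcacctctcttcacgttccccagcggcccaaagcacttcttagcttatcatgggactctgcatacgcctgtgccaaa
Tnfrsf18, chr4:156026072-156026371, plus strand: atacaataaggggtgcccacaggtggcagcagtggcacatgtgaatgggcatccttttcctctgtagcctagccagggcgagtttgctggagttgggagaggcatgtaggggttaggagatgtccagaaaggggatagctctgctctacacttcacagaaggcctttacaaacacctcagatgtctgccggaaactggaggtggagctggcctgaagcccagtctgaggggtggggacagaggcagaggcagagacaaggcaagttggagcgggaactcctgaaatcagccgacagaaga
Tnfsf8, chr4:63861235-63861534, minus strand: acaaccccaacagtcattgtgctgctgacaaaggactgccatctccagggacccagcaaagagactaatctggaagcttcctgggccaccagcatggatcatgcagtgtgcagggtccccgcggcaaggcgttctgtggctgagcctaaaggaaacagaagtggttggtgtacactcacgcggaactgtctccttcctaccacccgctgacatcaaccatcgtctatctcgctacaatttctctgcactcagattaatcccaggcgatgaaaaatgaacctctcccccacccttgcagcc
Tnfaip3, chr10:19015361-19015660, minus strand: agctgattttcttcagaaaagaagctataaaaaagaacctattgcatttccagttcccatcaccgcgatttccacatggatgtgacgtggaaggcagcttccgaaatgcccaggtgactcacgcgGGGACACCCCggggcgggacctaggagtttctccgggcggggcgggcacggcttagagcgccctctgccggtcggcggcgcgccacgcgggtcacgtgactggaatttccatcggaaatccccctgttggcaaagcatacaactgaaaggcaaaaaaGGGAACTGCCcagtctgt
Windows were found for 35 of the 42 members, and 12 of these 35 genes (34.3%) had at least 1 match, beside 22.9% of 27025 RefSeq genes. Of the 7 genes with a window among the 9 at an unadjusted p below 0.05, 2 had a match, Tnfrsf9 and Tnfrsf8. Tnfrsf9 has a second annotated start whose window, not shown, held none. Tnfaip3 also has 2 windows, and the one shown was picked for having the most matches. Sequences that differ from this pattern were not searched for and stay in small letters. A match is only a match of letters, and the windows of Tnfrsf4, Tnfrsf18 and Tnfsf8 simply did not contain these letters. The build named for the reads is mm9, per the submitters' processing notes, so these coordinates do not apply to the deposited table.

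Regulatory T cell markers are given beside the receptors. Of 18 markers, 14 had lower deposited means in Klrg1Cre and 9 were lower at an unadjusted p below 0.05, and 1, Itgae, fell over all genes (42.8 CPM in Klrg1Cre against 150.9 CPM in control, in the authors' deposited table adjusted p = 0.00949). Foxp3 stood at 50.6 CPM in Klrg1Cre against 104.6 CPM in control (the authors' deposited table, p = 0.00239, adjusted p = 0.321). The other 7 of these 9 were Gpr83, Izumo1r, Itgb8, Ikzf4, Lrrc32, Ikzf2 and Il2ra. The 18 markers had a median log2 ratio of -0.43. The 18 markers summed to 702.5 CPM in Klrg1Cre against 1009 CPM in control. Summed over the 8 markers with reads per library, the level was 141.9 CPM in the larger and 201.9 CPM in the smaller Klrg1Cre library, against 209.2 CPM in the larger and 256.0 CPM in the smaller control library. The order of the 4 libraries was the same for Tnfrsf8, whereas for Tnfrsf4 the smaller Klrg1Cre library stood above the larger control library. Much of the sum came from Nt5e and Tigit, at 52.2 and 39.0 CPM in the larger Klrg1Cre library. Within each group the smaller library was also higher for Swap70 and Il10, whose means were higher in Klrg1Cre. Ikzf2, encoding the regulatory T cell factor Helios, held 10.8 and 22.2 CPM in Klrg1Cre against 26.5 and 39.2 CPM in control. The part of regulatory T cells in the receptor differences was not tested. Without Tnfrsf4, Tnfrsf9, Tnfrsf18 and Tnfrsf1b, which these cells and activated effector cells carry, the median log2 ratio of the remaining 13 receptors was -0.12. The ratios of all 4 lay below the receptor median, so leaving them out had to raise it, whatever cells they came from.

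**Figure D3:**
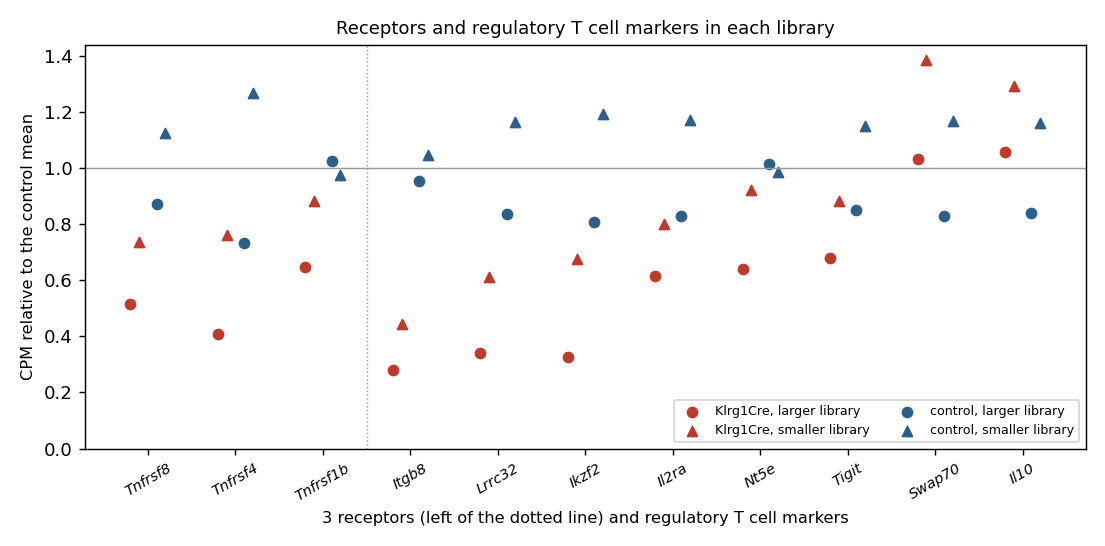
The vertical axis is CPM in each library relative to the control mean of the same gene, for 3 receptors at an unadjusted p below 0.05 and the 8 regulatory T cell markers with reads per library, with circles for the larger and triangles for the smaller library. In both genotypes the smaller library has the higher value for each gene shown except Tnfrsf1b and Nt5e. The Klrg1Cre points lie lowest for Itgb8, Lrrc32 and Ikzf2, while the Klrg1Cre means of Swap70 and Il10 are above control.

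ILC2 markers, 12 of 15 listed, had 5 higher and 7 lower means, a median log2 ratio of -0.08 and a sum of 223.6 CPM in Klrg1Cre, where control had 323.7 CPM. The sort on CD4 should leave these cells out, and Csf2, Hes1 and Tph1 were not among the listed markers. Over the 6 markers with values per library the sums were 110.03 and 86.6 CPM in the Klrg1Cre libraries, below 193.1 and 198.1 CPM in the control libraries, in the order larger and smaller. Most of the gap in these sums, and in the sum over 12, came from Arg1 and from Klrg1, for which the Cre is named. Of the 6 markers, 3 had overlapping groups, namely Il17rb, Areg and Ramp3. At an unadjusted p below 0.05, Klrg1, Il2ra and Arg1 were lower, with Arg1, an arginine-degrading enzyme that macrophages also express, at 53.9 CPM in Klrg1Cre against 98.5 CPM in control. Nmur1, the neuromedin U receptor, was higher at 7.73 CPM in Klrg1Cre against 2.40 CPM in control, as were Calca at 18.4 and 10.1 CPM and Kit at 1.29 and 0.356 CPM. None of the 12 passed the adjusted p in the authors' deposited table, and the part of ILC2 in the receptor and ligand values was not tested.

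General T cell markers, 13 of 14 listed, summed to 1671 CPM in Klrg1Cre against 1664 CPM in control, with Thy1 (95.04 and 75.3 CPM) and Zap70 (172 and 142 CPM) higher at an unadjusted p below 0.05. Neutrophil markers, 6 of 10 listed and without Ly6g, summed to 15.5 CPM in Klrg1Cre against 9.59 CPM in control, and Mmp9 was higher at that p, at 4.90 and 2.58 CPM. Eosinophil, basophil and mast cell markers, 3 of 10 listed, summed to 7.89 CPM in Klrg1Cre against 9.04 CPM in control, with Ccr3 lower at that p (2.89 and 5.58 CPM). NK cell and CD8 T cell markers, 3 of 10 listed, summed to 21.6 CPM in Klrg1Cre against 19.04 CPM in control, with Cd8a and Ncr1 not listed. Markers of epithelium, endothelium and stroma, 8 of 13 listed, summed to 39.1 CPM in Klrg1Cre against 34.6 CPM in control, where at that p Pecam1 (17.7 and 12.1 CPM) and Scgb1a1 (4.23 and 2.57 CPM) were higher and Epcam (0.921 and 2.78 CPM) was lower. The part of these cells in the family's values was not tested.

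Among the ligands, Tnfsf8 and Tnfsf9 had higher means in Klrg1Cre at an unadjusted p below 0.05. Tnfsf8 encodes CD30 ligand, the partner of the Tnfrsf8 product, and held 34.3 and 36.3 CPM in the larger and smaller Klrg1Cre libraries, against 23.7 and 18.9 CPM in the larger and smaller control libraries. Both Klrg1Cre libraries lay above both control libraries, and the libraries of each group were close together. Tnfsf8 averaged 35.3 ± 1.41 CPM in Klrg1Cre against 21.3 ± 3.35 CPM in control (SD, n = 2 each). Its mean was thus 1.66-fold higher (the authors' deposited table, p = 0.00126, adjusted p = 0.268). Tnfsf9 encodes 4-1BB ligand, the partner of the Tnfrsf9 product, and held 3.61 and 3.30 CPM in Klrg1Cre, from 94 and 48 reads, against 1.29 and 1.97 CPM in control, from 43 and 63 reads. The groups did not overlap, and the mean was 2.12-fold higher (the authors' deposited table, p = 0.0141, adjusted p = 0.591).

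In the CD30 and 4-1BB systems the ligand was thus higher and the receptor lower in Klrg1Cre, with log2 ratios of 0.73 for Tnfsf8 against -0.67 for Tnfrsf8, and of 1.08 for Tnfsf9 against -1.37 for Tnfrsf9. The TRAIL pair was close to even, with log2 ratios of -0.22 for Tnfsf10 and 0.06 for Tnfrsf10b. For BAFF and APRIL, the B cell survival factors, the ligand genes Tnfsf13b and Tnfsf13 had log2 ratios of 0.52 and 0.34, and the receptor genes Tnfrsf13c and Tnfrsf13b -0.57 and -0.25, all at unadjusted p above 0.05. In the other 3 of 8 pairs, ligand and receptor had the same sign. The TWEAK pair had 1.11 for Tnfsf12 and 0.38 for Tnfrsf12a. The RANK pair had -0.19 for Tnfsf11 and -0.95 for Tnfrsf11a, the latter from few reads. The LIGHT pair had -0.48 for Tnfsf14 and -0.01 for Tnfrsf14. The signs of Tnfsf11 and Tnfsf14 turned without the larger control library.

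Tnfsf10, encoding TRAIL, held 20.0 and 17.0 CPM in Klrg1Cre against 22.3 and 20.6 CPM in control (the authors' deposited table, p = 0.211, adjusted p = 0.803), so that the groups were apart by a narrow margin. Tnfsf14, encoding LIGHT, which binds HVEM, held 5.88 and 5.01 CPM in Klrg1Cre against 9.92 and 5.26 CPM in control, where only the larger control library stood high (the authors' deposited table, p = 0.220, adjusted p = 0.811). Tnfsf11, encoding RANK ligand, showed the same control library high, with 6.00 and 7.62 CPM in Klrg1Cre against 10.3 and 5.23 CPM in control (the authors' deposited table, p = 0.721, adjusted p = 0.956). Without the larger control library the log2 ratio was 0.05 in place of -0.48 for Tnfsf14 and 0.38 in place of -0.19 for Tnfsf11.

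Ligand genes known from myeloid cells stood at low levels. Tnfsf13b, encoding BAFF, averaged 1.43 CPM in Klrg1Cre against 0.997 CPM in control. Tnfsf12, encoding TWEAK, Tnfsf13, encoding APRIL, and Tnfsfm13, a read-through transcript of both, overlap on chromosome 11, so reads can be divided between them. Tnfsf12 stood at 1.76 CPM in Klrg1Cre against 0.811 CPM in control (the authors' deposited table, p = 0.0524), and the 3 genes together at 3.55 and 2.13 CPM. Dendritic cell markers were listed for 8 of 12 genes and summed to 122.8 CPM in Klrg1Cre against 104.9 CPM in control, with 6 of 8 means higher and Flt3 and Clec9a not among the listed ones. H2-Ab1, an MHC class II gene, stood at 50.7 CPM in Klrg1Cre against 38.9 CPM in control (the authors' deposited table, p = 0.0196, adjusted p = 0.610), and H2-Aa, another, at 17.2 and 12.9 CPM (the authors' deposited table, p = 0.0414). Cd74, counted among the 6 higher means, was even at 43.4 CPM in both groups (the authors' deposited table, p = 0.986). The 2 lower means were those of Itgax (3.56 and 3.86 CPM) and Batf3 (0.812 and 0.815 CPM). Macrophage and monocyte markers, 19 of 20 listed, summed to 1705 CPM in Klrg1Cre against 2476 CPM in control. Most of it came from Chil3 at 1124 and 1932 CPM, whose gap exceeded that of the sum, while Lyz2 stood at 395.9 and 364.0 CPM. Their means were higher for 8 and lower for 11, and of the 12 with values per library 11 overlapped. The part of these cells in the ligand values was not tested.

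**Figure D4:**
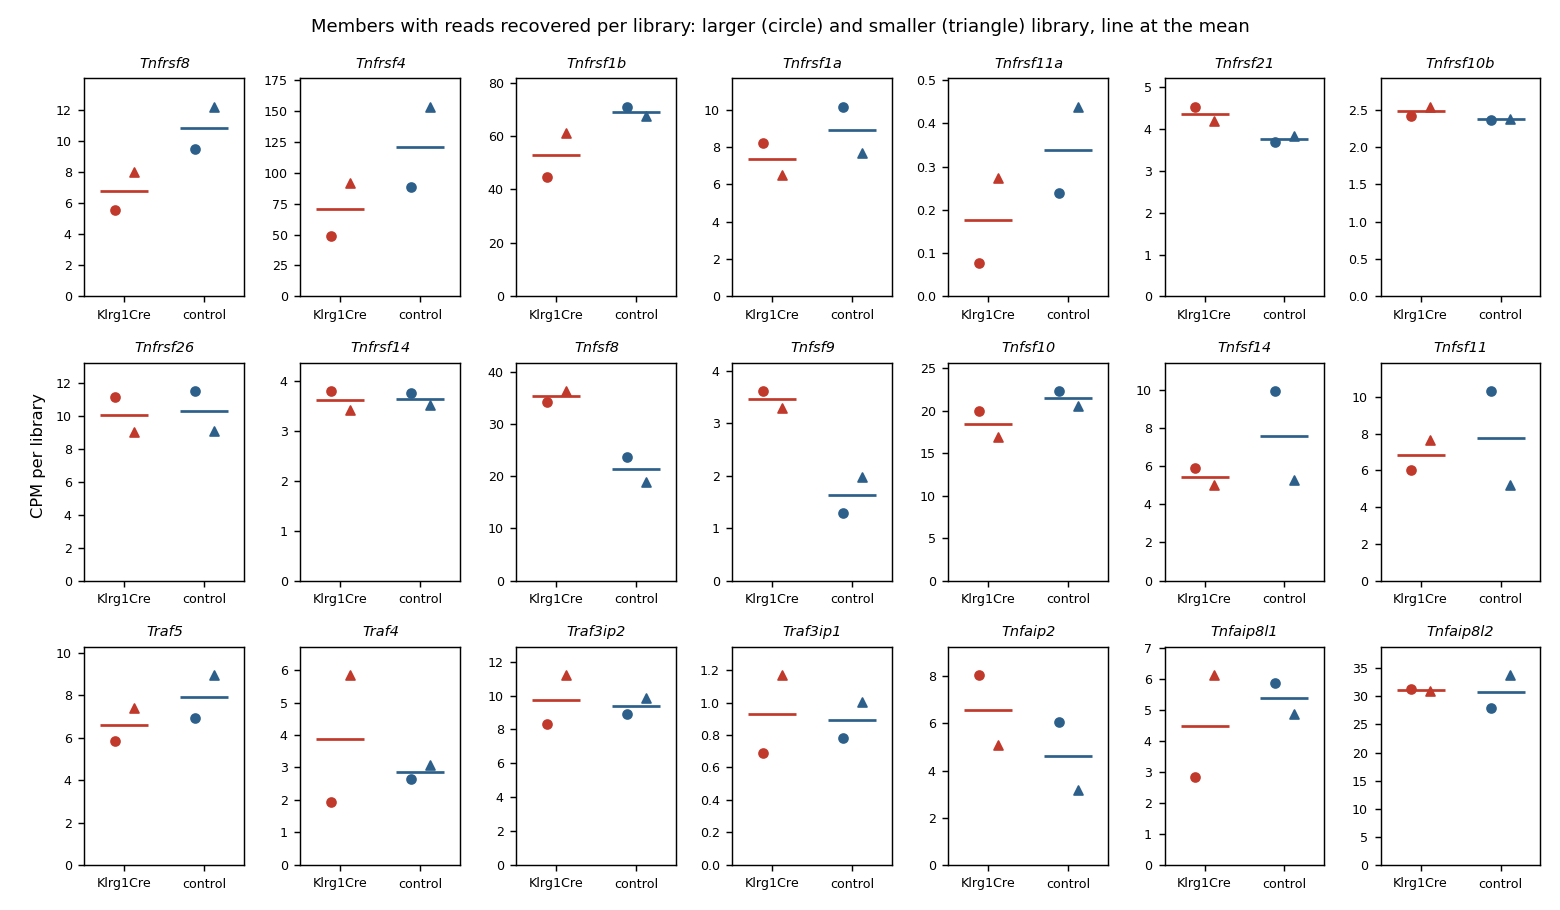
Each panel is 1 of the 21 members with reads recovered per library, with CPM from 0 on the vertical axis, a circle for the larger and a triangle for the smaller library, and a line at the mean of Klrg1Cre (red, left) and control (blue, right). The Klrg1Cre points lie above both control points for Tnfsf8 and Tnfsf9 and below both for Tnfrsf8 and Tnfrsf1b, while Tnfrsf4 and Traf4 show wide gaps between libraries of a group.

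Over the 21 members with values per library, in 3 both libraries of Klrg1Cre lay below the control pair (18.3% of 5351 such genes did), 4 had both above (19.3% did) and 14 overlapped. The 7 members with groups apart were Tnfrsf8, Tnfrsf1b and Tnfsf10 below, and Tnfsf8, Tnfsf9, Tnfrsf21 and Tnfrsf10b above. The share of members with groups apart, 7 of 21, was near the background of 37.6% of all such genes.

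Of the TRAF genes, Traf1, an NF-kappaB-induced adaptor that binds receptor tails together with TRAF2, averaged 54.9 CPM in Klrg1Cre against 41.8 CPM in control, and its mean was 1.31-fold higher (the authors' deposited table, p = 0.0186, adjusted p = 0.606). Traf2, which links most costimulatory receptors to NF-kappaB, averaged 25.04 CPM in Klrg1Cre against 27.1 CPM in control (the authors' deposited table, p = 0.469, adjusted p = 0.901). Traf3, which holds back non-canonical NF-kappaB signalling, stood at 13.8 CPM in Klrg1Cre against 15.9 CPM in control (the authors' deposited table, p = 0.241). Traf5, which serves OX40 and related receptors, held 5.84 and 7.42 CPM in Klrg1Cre against 6.92 and 8.95 CPM in control, with overlapping groups. Traf6, the adaptor of interleukin-1 family and Toll-like receptors, stood at 9.90 CPM in Klrg1Cre against 8.14 CPM in control (the authors' deposited table, p = 0.268), and Traf7 at 21.5 and 22.5 CPM (the authors' deposited table, p = 0.685, adjusted p = 0.952).

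Traf4 had the highest log2 ratio of the TRAF genes, 0.44, but its Klrg1Cre libraries lay on either side of control, with 1.92 and 5.84 CPM in Klrg1Cre against 2.64 and 3.07 CPM in control. The Traf3ip genes were close between groups. Traf3ip3, a TRAF3-binding protein of lymphocytes and the most abundant of this class per kb of exon, averaged 42.5 CPM in Klrg1Cre against 41.3 CPM in control (the authors' deposited table, p = 0.776, adjusted p = 0.963). Traf3ip2, encoding the interleukin-17 receptor adaptor Act1, held 8.34 and 11.2 CPM in Klrg1Cre against 8.90 and 9.86 CPM in control. Traf3ip1, which acts in cilia, stayed under 1 CPM as a mean in both groups.

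Of the Tnfaip genes, Tnfaip3, encoding A20, the deubiquitinase that ends NF-kappaB signalling, averaged 40.5 CPM in Klrg1Cre against 33.3 CPM in control (the authors' deposited table, p = 0.222, adjusted p = 0.811). Tnfaip8l2, encoding TIPE2, a brake on immune activation, held 31.3 and 30.9 CPM in Klrg1Cre against 28.0 and 33.7 CPM in control (the authors' deposited table, p = 0.907, adjusted p = 0.983), and per kb of exon it was the most abundant of the class. Tnfaip8, the founding TIPE gene, stood at 26.0 CPM in Klrg1Cre against 24.1 CPM in control (the authors' deposited table, p = 0.519, adjusted p = 0.913), and Tnfaip1, encoding a substrate adaptor of a cullin ubiquitin ligase, at 7.70 and 9.002 CPM (the authors' deposited table, p = 0.320, adjusted p = 0.839). Tnfaip2 held 8.03 and 5.08 CPM in Klrg1Cre against 6.05 and 3.19 CPM in control, and Tnfaip8l1 2.84 and 6.11 CPM in Klrg1Cre against 5.87 and 4.88 CPM in control. The groups overlapped in Tnfaip2, Tnfaip8l1 and Tnfaip8l2, the 3 Tnfaip genes with values per library.

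Family genes that carry other symbols were taken as a list of 16, of which 12 were in the table and 7 had lower means in Klrg1Cre. Their median log2 ratio was -0.14, 0 passed the authors' adjusted p and 2 were lower at an unadjusted p below 0.05. Cd27, a costimulatory receptor that binds CD70, averaged 23.5 CPM in Klrg1Cre against 33.8 CPM in control (the authors' deposited table, p = 0.0225). Ltb, encoding lymphotoxin beta, held 132.2 and 206.9 CPM in Klrg1Cre against 229.5 and 221.8 CPM in control, with both Klrg1Cre libraries lower (the authors' deposited table, p = 0.0425, adjusted p = 0.698). Cd40lg, encoding CD40 ligand, held 6.19 and 6.11 CPM in Klrg1Cre against 5.003 and 3.44 CPM in control (the authors' deposited table, p = 0.0666), and Tnf itself stood at 4.73 CPM in Klrg1Cre against 4.40 CPM in control, both named after their values had been seen.

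Genes of the signalling complexes below the receptors, all 32 of the list in the table, had a median log2 ratio of -0.09, with 0 called over all genes and 3 at an unadjusted p below 0.05. Cflar, encoding the caspase-8 inhibitor c-FLIP, averaged 29.8 CPM in Klrg1Cre against 40.4 CPM in control (the authors' deposited table, p = 0.0127), and Daxx 23.0 and 31.7 CPM (the authors' deposited table, p = 0.0139). Map3k14, encoding NIK, the kinase of non-canonical NF-kappaB signalling that TRAF3 marks for degradation, held 7.26 and 6.59 CPM in Klrg1Cre against 5.12 and 3.69 CPM in control (the authors' deposited table, p = 0.0297). Linear ubiquitin and deubiquitinase genes, 16 of 17 listed, had a median of -0.10 and 1 at an unadjusted p below 0.05, Usp18, at 9.01 CPM in Klrg1Cre against 13.9 CPM in control. Of the list of 9 TRAF-interacting genes, 6 are not members, and none of these 6 reached an unadjusted p of 0.05, with Spop at 34.3 CPM in Klrg1Cre against 33.9 CPM in control and Trafd1 at 26.8 and 23.5 CPM.

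In the NF-kappaB core, 14 genes had a median log2 ratio of 0.01, and 1, Nfkb1, encoding the p105 precursor of p50, reached an unadjusted p below 0.05. Nfkb1 held 113.3 and 110.3 CPM in Klrg1Cre against 59.5 and 62.8 CPM in control, and its mean was 1.83-fold higher, with an adjusted p of 0.0635 in the authors' deposited table that did not pass. Of 27 NF-kappaB target genes outside the family, 5 were higher and 3 lower at an unadjusted p below 0.05 and 0 were called, with a median of 0.11. Higher means were those of Il1b (2.53 CPM in Klrg1Cre against 0.444 CPM in control), Ccl5, Ccl4, Ccnd2 and Gadd45b, and lower ones those of Icam1 (40.8 and 56.9 CPM), Bcl2a1b and Il2ra, which is also in the regulatory T cell list.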

How the data were processed

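RNA was sequenced from 4 samples of sorted lung Th2 cells, 2 per genotype. The tools named are STAR and Partek and the mouse build is mm9 (per the submitters' processing notes, without versions). The only file is 1 table of the authors' own comparison. Per the file headers it holds, for each gene, group means, taken as CPM (counts scaled to the reads of each library, an offset of 0.0001 added), a ratio, a signed fold change (a score below -1 or above 1), a p-value and an adjusted p-value. For all 11883 genes the deposited ratio matched Klrg1Cre mean over control mean, and the adjusted p matched Benjamini-Hochberg. The deposited total is a normalized signal, 2 times the summed means, and was only checked. The authors' model is not given in the sources used here, so their p-values stand for the comparison.

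Library totals and whole reads per library were inferred from the step size of deposited values in Python 3.11.15, to a tolerance of 1e-08 reads, and the split was tested on simulated means. It gave 5351 genes (45.0%) in both groups, and no count model was run on these alone. limma 3.58.1 in R 4.3.3 (log2 of CPM plus 1, trended variance, recovered genes averaging at least 1 CPM) was run as an alternative and tested on simulated counts. Exon lengths are the union of GENCODE M21 basic exons, an annotation of another build, used for lengths only. Of the members, 42 matched a RefSeq symbol.

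Members with an unadjusted p below 0.05 and the 4 per class with the largest means are named in full, members under 1 CPM in both groups by range, and list genes where their p was below 0.05. The members and lists were chosen with earlier results of these data known. Alternatives were the pseudocount, a filter on low means, the scaling, limma, and leaving out each library.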

Additional observations from a re-analysis of the deposited data

How the results depend on the processing

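No member passed the adjusted threshold under any filter or in limma on the recovered genes. At an unadjusted p below 0.05 limma gave 5 of 19 recovered members (Tnfsf8, Tnfsf9, Tnfrsf8, Tnfrsf4 and Tnfrsf1b), 26.3% beside 7.87% of the 4242 genes tested with it, against 9 of 42 by the authors' p. The other 4 could not be tested, as their reads were not recovered. The receptor median of -0.28 was -0.24 and -0.12 with pseudocounts of 1 and 5 CPM, -0.33 and -0.39 over receptors with a mean of at least 1 and 5 CPM, and -0.30 scaled to listed genes other than Rn45s. It was -0.12 without Tnfrsf4, Tnfrsf9, Tnfrsf18 and Tnfrsf1b, whose ratios all lay below -0.28, so leaving them out had to raise it. The ligand median of 0.52 was 0.22 and 0.061 with pseudocounts of 1 and 5 CPM, and -0.20 over the 4 ligands with a mean of at least 5 CPM, so its sign rests on ligands with low means. Over all 42 members the median of -0.02 was -0.065 and -0.15 over those with a mean of at least 1 and 5 CPM. Scaling to all reads other than Rn45s, chosen after seeing the data, adds 0.57 to every log2 ratio and puts the median of all genes at 0.57. The medians were then 0.29 for receptors, 1.09 for ligands, 0.62 for TRAF adaptors, 0.63 for Tnfaip genes and 0.54 for all members, so receptors still lay below the median of all genes and ligands above it.

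Leaving out 1 library in turn, on the log2(CPM + 1) scale over recovered members, gave medians between -0.18 and -0.055 for 9 receptors (-0.19 with all libraries), between -0.26 and 0.33 for 5 ligands (-0.17, where the median over all 9 was 0.52), between -0.27 and 0.21 for 4 TRAF adaptors (0.041), between -0.10 and 0.11 for 3 Tnfaip genes (0.012) and between -0.15 and -0.012 for all 21 (-0.028). The direction of the ligands and of the Tnfaip genes turned without the larger control library, and that of the TRAF adaptors without that library or the smaller Klrg1Cre library. The cause was not tested. For the 9 members at an unadjusted p below 0.05 the direction held with both pseudocounts and scaled to listed genes, and turned for Tnfrsf1b and Tnfrsf18 under the scaling without Rn45s. It also held in limma and without each library for the 5 with values per library. Tnfrsf9, Tnfrsf18, Tnfrsf22 and Traf1 could not be put through those. Tnfrsf4 ranged from -1.30 without the smaller Klrg1Cre library to -0.33 without the smaller control library. No paired analysis was possible because the recovered libraries carry no replicate number. The means are limited by 2 libraries per group, where an exact two-sided permutation test cannot go below 0.333.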
